A study of Homo sapiens with 4 samples.

Results

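The WNT pathway and intestinal stem cell genes are 50 genes, read by symbol from the 58825 gene rows of the count tables: ligands, receptors, inhibitors, intracellular regulators and nuclear factors of WNT signaling, and markers of the stem cells of the intestinal crypt. They were measured by RNA sequencing of QuantSeq 3' libraries, which count transcripts by their 3' ends, in LoVo cells, an established colorectal adenocarcinoma line grown in DMEM with 10% FBS. The comparison is between 2 MET+ libraries (LoVo cells labelled as GFP control, with the WT genotype) and 2 MET-KO libraries (LoVo cells whose MET gene was knocked out with SpCas9 and a MET sgRNA), both labelled as biological replicates. The knockout cells had been selected with puromycin, grown from single picked clones and chosen by western blot, and whether the 2 MET-KO libraries come from 1 clone is not given in the sources used here. The control cells are not described as clones, so a difference between clones and a difference made by loss of MET cannot be told apart.

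WNT ligands bind a frizzled receptor together with LRP5 or LRP6 at the cell surface, which keeps the destruction complex of APC, AXIN and kinases from degrading β-catenin. β-catenin then joins TCF/LEF factors in the nucleus and switches on genes such as AXIN2, NKD1, NOTUM, DKK1, RNF43 and ZNRF3, several of which dampen the signal again. R-spondins, bound by LGR4, LGR5 and LGR6, protect frizzled receptors from removal by the ligases RNF43 and ZNRF3, and LGR5 marks the dividing stem cells at the base of the intestinal crypt. LoVo cells are known to carry truncating mutations of APC, so part of the pathway in them runs without ligand.

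The sequences upstream of 4 of these genes are shown because the genes were among the most changed of those with a listed promoter. Only SP5 among them carries the letters to which TCF/LEF factors bind. More than 1 start site was listed for TNFRSF19 (2), RNF43 (2) and LGR6 (3), and the sequences shown for these genes belong to the most upstream start. All 4 are RefSeq sequences on GRCh38.p14, printed in the direction of transcription and ending where the first annotated exon of GENCODE 29 begins or at the start site, and the capitals mark CTTTGAT or CTTTGAA on either strand (ATCAAAG and TTCAAAG when read on the other strand). SP5, which rose in MET-KO cells, lies on the plus strand with its upstream bases at chr2:170715087-170715336. TNFRSF19, which also rose, has the 208 bases at chr13:23570162-23570369 on the plus strand. RNF43, which fell, is shown by 189 bases at chr17:58417596-58417784 on the minus strand, and LGR6, which fell too, by chr1:202193549-202193798 on the plus strand.
SP5: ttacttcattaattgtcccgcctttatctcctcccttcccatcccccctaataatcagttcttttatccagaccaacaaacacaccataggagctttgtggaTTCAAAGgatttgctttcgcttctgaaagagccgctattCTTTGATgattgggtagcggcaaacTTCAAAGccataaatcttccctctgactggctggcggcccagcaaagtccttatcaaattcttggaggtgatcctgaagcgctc
TNFRSF19: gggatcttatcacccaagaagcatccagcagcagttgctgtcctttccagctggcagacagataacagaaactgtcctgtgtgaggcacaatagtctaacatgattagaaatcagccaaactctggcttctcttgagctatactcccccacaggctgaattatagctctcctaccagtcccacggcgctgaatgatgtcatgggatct
RNF43: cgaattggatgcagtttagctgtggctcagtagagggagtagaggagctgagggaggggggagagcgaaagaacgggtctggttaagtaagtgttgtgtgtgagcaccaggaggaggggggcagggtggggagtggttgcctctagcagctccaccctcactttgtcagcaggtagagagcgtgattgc
LGR6: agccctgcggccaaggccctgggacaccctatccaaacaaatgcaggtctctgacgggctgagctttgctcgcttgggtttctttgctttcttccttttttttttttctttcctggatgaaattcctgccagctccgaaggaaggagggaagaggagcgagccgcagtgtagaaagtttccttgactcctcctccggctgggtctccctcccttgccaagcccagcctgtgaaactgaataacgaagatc
SP5 had 3 matches, with their first bases 148, 109 and 84 bases before the start site, and the other 3 stretches had none. Windows of 300 bases around a start site (250 before and 50 after) were listed for 30 of the 50 genes, 44 windows in all. CTTTGAT was present in 2.62% and CTTTGAA in 4.43% of all 35116 listed windows, and either in 6.86%. Among the 44 windows, 3 held a match, at SP5, at DKK1 (1 match 95 bases before the start) and at 1 of the 4 starts of PROM1. The motifs share 6 letters, and a match is a description of the sequence, not evidence that a factor binds there. The windows of these genes had a median GC content of 63.7%, against 58.7% over all windows, and a median ratio of observed to expected CpG of 0.683, against 0.579.

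Depth was 8429142 and 10286552 counts for MET+ against 10137583 and 10228991 for MET-KO, and 3 counts, taken as the upper limit for a gene at 0, correspond to 0.276 to 0.363 CPM (reads of a gene per 1 000 000, scaled by library size and TMM factor). Limits and intervals cover counting error only. MET itself had 338 and 336 CPM in the MET+ libraries and 84.4 and 88.9 CPM in the MET-KO libraries. Of 13801 genes tested, the log2 fold change (log2FC) of MET-KO against MET+ had a median of 0.01 and quartiles of -0.43 and 0.55, but chromosomes 5, 12, 14 and 15 had medians of -0.43, -0.32, -0.51 and -0.43 and chromosomes 7 and 21 medians of 0.50 and 0.30. No protein-coding gene of chromosome Y had a count in MET+ and 8 of 45 had one in MET-KO libraries. The epithelial markers EPCAM, CDH1, KRT8, KRT18 and KRT19 were present in every library, CDX1 was at 0 in all 4, and of the 8 epithelial markers tested (9 listed) CDX2 and KRT20 were higher and the other 5 that were called lower after the knockout. Of 7 fibroblast markers COL1A2 and DCN were at 0 and the summed level was 1.64 to 2.18 CPM for MET+ against 3.63 to 4.33 for MET-KO, of 5 immune markers PTPRC and CD3E were at 0 and the sum was 5.92 to 10.1 against 0.981 to 1.20 CPM, and of 4 endothelial markers CDH5 and KDR were at 0 with sums of at most 0.924 CPM. In MET+ most of the immune sum was LYZ alone, at 4.59 and 8.11 CPM, against 0.294 and 0.0921 CPM in MET-KO.

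In MET-KO cells the pathway moved in both directions. The R-spondin receptors LGR5 and LGR6, the ligase and WNT target RNF43 and the surface marker PROM1 were far lower. The ligand WNT5A, the secreted protein DKK3 and the WNT target genes AXIN2, SP5 and LEF1 rose several-fold or more. Among the other targets named above, DKK1 and NOTUM rose less, and NKD1 and ZNRF3 were not called. Expression was high enough for a test in 42 of the 50 genes, and 34 of these (81.0%) passed an adjusted p of 0.05 (quasi-likelihood test of edgeR, adjusted over all genes after Benjamini and Hochberg), 19 of them higher and 15 lower in MET-KO. Over all tested genes 54.1% passed, 27.2% higher and 26.9% lower. With a log2FC of at least 1 in size besides, 8 were higher and 8 lower, against 24.3% of all tested genes in either direction. The groups did not overlap in 39 of the 42 genes, 22 with MET-KO on top and 17 with MET+ on top, and the same held for 75.6% of all tested genes. The median log2FC of the 42 was 0.24. Of the 42, 37 were high enough in both groups, FZD8, RNF43 and PROM1 only in MET+ and DKK3 and SP5 only in MET-KO libraries, and these 5 had to differ in order to be tested, so the counts describe the genes and carry no weight of their own.

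**Figure D1:**
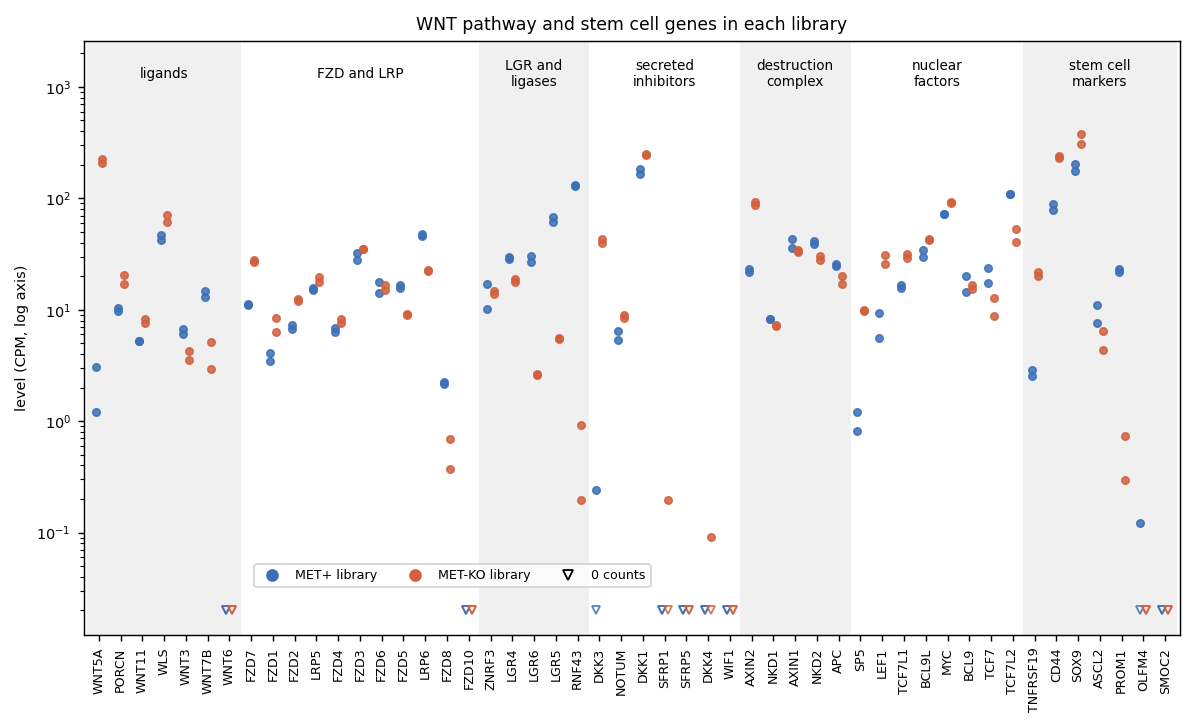
Level of the 50 genes in each of the 4 libraries, in CPM on a log axis, grouped by role, with MET+ libraries in blue and MET-KO libraries in red and open triangles for libraries with 0 counts. WNT5A, DKK3 and SP5 stand higher in both MET-KO libraries and RNF43, LGR5, LGR6 and PROM1 lower, whereas FZD3, FZD6, AXIN1 and BCL9 lie close together.

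The remaining 8 genes were too low for a test. WNT6, a ligand, FZD10, a frizzled receptor, SFRP5 and WIF1, which bind and sequester ligands, and SMOC2, a secreted crypt marker, had 0 counts in all 4 libraries, which allows a level of up to 0.276 to 0.363 CPM per library. SFRP1, another ligand-binding inhibitor, had 2 counts in MET-KO replicate 1 only, DKK4, a blocker of LRP5 and LRP6, 1 count in MET-KO replicate 2 only, and OLFM4, a glycoprotein of crypt stem cells, 1 count in MET+ replicate 1 only. A difference in these genes was not detectable at this depth. In bulk libraries, fewer cells expressing a gene and less RNA per cell cannot be told apart, here or for any gene that follows.

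Among the ligands and the genes for their secretion, 6 of 7 were tested and all 6 passed the test, 4 as higher and 2 as lower, with a median log2FC of 0.59. WNT5A changed the most of these 6, and WNT7B and WNT3 moved the other way. WNT5A (ENSG00000114251, chromosome 3, 55465715 to 55490539), which acts mostly through β-catenin-independent branches, had 10 and 30 counts in MET+ against 2130 and 2438 in MET-KO, or 1.21 and 3.08 against 209 and 225 CPM. The MET+ libraries were near the lower end of what was measured and the groups lay far apart. The log2FC was 6.60 (standard error 0.17, adjusted p = 5.68e-26 by edgeR), and 7.46 without MET+ replicate 2, which held most of the MET+ counts. WNT7B (ENSG00000188064, chromosome 22, 45920362 to 45977129), a ligand of the β-catenin branch, had 107 and 145 counts (12.9 and 14.9 CPM) in MET+ against 52 and 32 (5.10 and 2.95 CPM) in MET-KO. It fell by 1.80 on the log2 scale (standard error 0.25, adjusted p = 2.31e-07 by edgeR), with no overlap between the groups.

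The smaller changes of this group were less firm. WNT3, the ligand made by Paneth cells in the crypt, fell from 6.36 ± 0.445 to 3.88 ± 0.499 CPM (SD, n = 2 each), where ± gives the SD here and for every gene that follows, a log2FC of -0.71 (adjusted p = 0.0425 by edgeR), and lost its call without MET+ replicate 2 (-0.64), MET-KO replicate 1 (-0.59) or MET-KO replicate 2 (-0.85). WNT11, a ligand of the planar polarity branch, rose from 5.22 ± 0.0273 to 7.99 ± 0.489 CPM, a log2FC of 0.61 (adjusted p = 0.0448 by edgeR), and was not called when any 1 of the 4 libraries was left out (0.55 to 0.68). Both genes that every WNT ligand needs on its way out of the cell were higher in MET-KO cells. PORCN, which attaches the lipid to WNT proteins, rose from 9.97 ± 0.422 to 18.8 ± 2.44 CPM (log2FC 0.91, adjusted p = 0.000103 by edgeR), and WLS, which carries the lipid-bearing ligands to the surface, from 44.6 ± 2.86 to 65.9 ± 6.68 CPM (log2FC 0.56, adjusted p = 8.53e-05 by edgeR).

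The frizzled receptors and LRP co-receptors did not move together. Of 11 genes 10 were tested, 3 were higher, 3 lower and 4 not called, with a median log2FC of 0.24. FZD7 (ENSG00000155760, chromosome 2, 202034587 to 202038445), a frizzled that serves stem cells of the intestine, had 92 and 110 counts (11.1 and 11.3 CPM) in MET+ against 285 and 291 (27.9 and 26.8 CPM) in MET-KO. Its level rose by a log2FC of 1.29 (standard error 0.16, adjusted p = 4.07e-08 by edgeR), and the libraries of each group were nearly equal. FZD8 (ENSG00000177283, chromosome 10, 35638249 to 35642278) had only 18 and 22 counts (2.18 and 2.26 CPM) in MET+ against 7 and 4 (0.686 and 0.368 CPM) in MET-KO. It fell by 2.06 on the log2 scale (standard error 0.56, adjusted p = 0.00224 by edgeR), and without MET-KO replicate 2 the value was -1.67 and the call was lost (adjusted p = 0.1). LRP6 (ENSG00000070018, chromosome 12, 12116025 to 12267012), the co-receptor that is phosphorylated when a ligand binds, had 377 and 466 counts (45.6 and 47.8 CPM) in MET+ against 230 and 244 (22.6 and 22.5 CPM) in MET-KO. The log2FC of LRP6 was -1.05 (standard error 0.13, adjusted p = 1.36e-08 by edgeR), beside a median of -0.43 for the tested genes within 5 Mb and of -0.32 for chromosome 12. BCL2L14, which overlaps LRP6 on the other strand, had 53 and 64 counts in MET+ against 10 and 8 in MET-KO. How far its reads entered the LRP6 count was not tested.

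LRP5, the other co-receptor, was not called, at 15.4 ± 0.439 and 18.6 ± 1.36 CPM (SD, n = 2 libraries of each group, log2FC 0.27, adjusted p = 0.181 by edgeR). FZD2 rose from 7.03 ± 0.368 to 12.3 ± 0.328 CPM (log2FC 0.80, adjusted p = 0.00206 by edgeR). FZD1 rose from 3.80 ± 0.438 to 7.42 ± 1.48 CPM (log2FC 0.97, adjusted p = 0.00508 by edgeR), but the genes within 5 Mb of it had a median of 0.75. With the chromosome median taken out its value was 0.47 and no longer called (adjusted p = 0.18 by edgeR), nor was it called without MET-KO replicate 2 (0.75). FZD5, the frizzled of Paneth cells, fell from 16.2 ± 0.845 to 9.03 ± 0.132 CPM (log2FC -0.84, adjusted p = 0.000391 by edgeR). The frizzleds FZD3, FZD4 and FZD6 were not called, at 30.4 ± 3.17 and 35.3 ± 0.0208 CPM, 6.63 ± 0.371 and 7.92 ± 0.522 CPM, and 15.9 ± 2.62 and 15.9 ± 1.17 CPM in MET+ and MET-KO cells. The antisense gene PRSS23, which overlaps FZD4, had 104 and 119 counts in MET+ against 1136 and 1018 in MET-KO.

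All 3 R-spondin receptors and RNF43, 1 of the 2 ligases that remove frizzled receptors, were lower in MET-KO cells, and the other ligase, ZNRF3, was not called. The median log2FC of the 5 was -3.46. RNF43 (ENSG00000108375, chromosome 17, 58352500 to 58417595), a ligase whose loss raises frizzled levels at the surface, had 1099 and 1249 counts in MET+ against 2 and 10 in MET-KO. In CPM these were 133 and 128 against 0.196 and 0.921, and the groups lay far apart. The log2FC of RNF43 was -7.81 (standard error 0.21, adjusted p = 1.41e-25 by edgeR), and -9.28 without MET-KO replicate 2 and -7.13 without MET-KO replicate 1. The tested genes within 5 Mb of RNF43 had a median of -0.08, and SUPT4H1, which overlaps it on the same strand, had 1 or 2 counts in each library.

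ZNRF3, the closest relative of RNF43 and a ligase with the same substrates, was not called. Its libraries held 141 and 98 counts (17.0 and 10.1 CPM) in MET+ and 151 and 151 counts (14.8 and 13.9 CPM) in MET-KO cells, a log2FC of 0.10 (standard error 0.20, adjusted p = 0.715 by edgeR) with overlapping groups. The value rested on the uneven MET+ libraries: it was 0.51 and called without MET+ replicate 1 (adjusted p = 0.0487 by edgeR) and -0.26 without MET+ replicate 2.

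LGR5 (ENSG00000139292, chromosome 12, 71439770 to 71586310), the crypt stem cell receptor, had 566 and 602 counts (68.4 and 61.8 CPM) in MET+ against 56 and 61 (5.49 and 5.62 CPM) in MET-KO. The log2FC of LGR5 was -3.55 (standard error 0.15, adjusted p = 6.76e-20 by edgeR), and -3.23 with the median of chromosome 12 taken out. LGR5 overlaps TSPAN8 on the other strand, a gene that had 8185 and 9389 counts in MET+ against 399 and 385 in MET-KO. The strand setting used for counting is not given in the sources used here, so how far reads of TSPAN8 entered the LGR5 count was not tested. LGR6 (ENSG00000133067, chromosome 1, 202193901 to 202319781), a related R-spondin receptor with no annotated gene overlapping it, had 223 and 298 counts (26.9 and 30.6 CPM) in MET+ against 27 and 28 (2.65 and 2.58 CPM) in MET-KO. It fell by 3.46 on the log2 scale (standard error 0.22, adjusted p = 1.58e-15 by edgeR). LGR4, the most broadly expressed of the 3 receptors in animals, fell as well, from 29.1 ± 1.16 to 18.2 ± 0.875 CPM (log2FC -0.68, adjusted p = 0.000206 by edgeR).

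**Figure D2:**
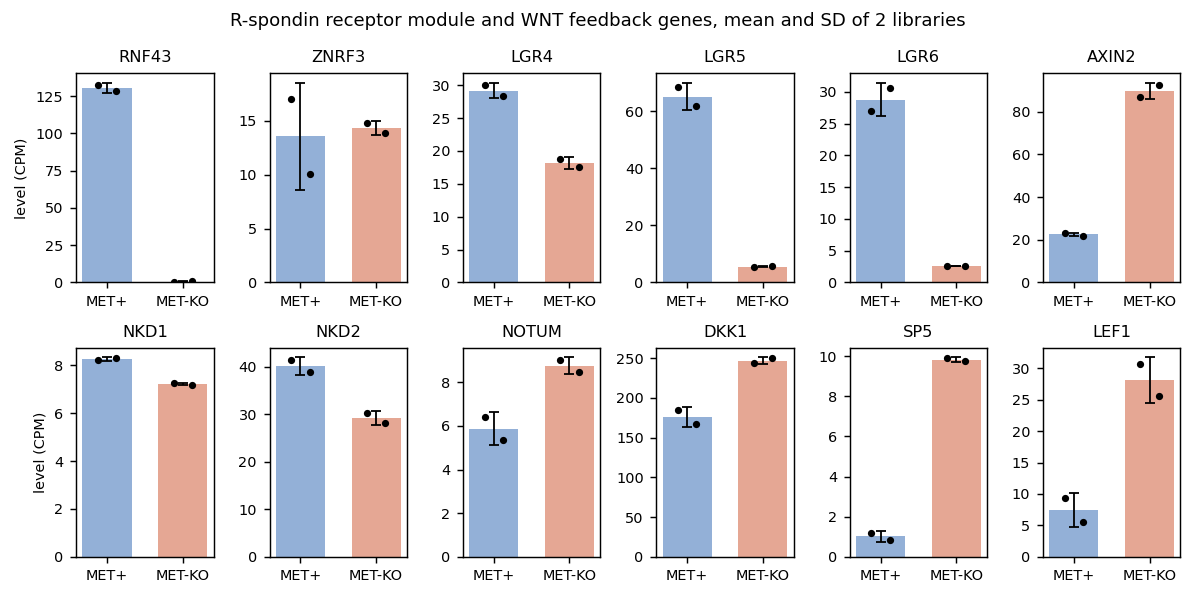
Level in CPM (bars from 0, mean; whiskers, SD; points, the 2 libraries of each group) of the R-spondin receptors, the 2 ligases and WNT feedback genes and targets, by group. RNF43, LGR5 and LGR6 are low in both MET-KO libraries while AXIN2, SP5 and LEF1 are high in both, and ZNRF3 overlaps.

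The secreted inhibitors that could be tested were all higher in MET-KO cells, 3 of 7, with a median log2FC of 0.58. DKK3, however, passed the filter only through the MET-KO libraries, where it was high, and had to differ in order to be tested. DKK3 (ENSG00000050165, chromosome 11, 11963106 to 12009769), a Dickkopf family protein whose part in WNT signaling is less clear than that of DKK1, had 2 and 0 counts in MET+ against 436 and 435 in MET-KO (42.8 and 40.1 CPM). The ratio of its summed counts per effective library size was 372.6 (exact 95% counting interval 102.8 to 3082), with an adjusted p of 4.32e-20 by edgeR. The fitted log2FC of DKK3 was 11.73 without MET+ replicate 1 and 7.34 without MET+ replicate 2, so its size rests on 2 counts. DKK1, which blocks LRP5 and LRP6, rose from 176 ± 12.5 CPM to 247 ± 4.23 CPM after the knockout (SD, n = 2 each, log2FC 0.49, adjusted p = 3.1e-05 by edgeR). NOTUM, an enzyme that strips the lipid from WNT ligands, rose from 5.87 ± 0.755 to 8.75 ± 0.388 CPM (log2FC 0.58, adjusted p = 0.0474 by edgeR). The NOTUM call was lost without MET+ replicate 2 (0.44), MET-KO replicate 1 (0.53) or MET-KO replicate 2 (0.63).

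Of the 5 genes of the destruction complex and of the dishevelled inhibitors, 1 was higher, 2 were lower and 2 were not called, with a median log2FC of -0.23. AXIN2 (ENSG00000168646, chromosome 17, 65528563 to 65561647), a scaffold of the complex and a widely used readout of β-catenin activity, had 191 and 213 counts (23.1 and 21.9 CPM) in MET+ against 888 and 1002 (87.1 and 92.3 CPM) in MET-KO. The log2FC of AXIN2 was 2.0 (standard error 0.12, adjusted p = 3.31e-16 by edgeR), and it stayed between 1.95 and 2.04 with any 1 library left out. AXIN1, its constitutive relative, had 39.4 ± 5.25 and 33.6 ± 0.886 CPM and was not called (log2FC -0.23, adjusted p = 0.131 by edgeR), although it was without MET+ replicate 2 (-0.37, adjusted p = 0.0362 by edgeR). NKD1, a feedback inhibitor that binds dishevelled, was not called either, at 8.27 ± 0.0684 and 7.22 ± 0.0517 CPM (log2FC -0.20, adjusted p = 0.508 by edgeR). NKD2, its relative, fell from 40.2 ± 1.80 to 29.2 ± 1.43 CPM (log2FC -0.46, adjusted p = 0.00248 by edgeR), and APC from 25.4 ± 0.649 to 18.4 ± 2.07 CPM (log2FC -0.46, adjusted p = 0.0114 by edgeR). Both genes lie on chromosome 5, whose median was -0.43. With that median taken out, the values were -0.03 for each and neither was called (adjusted p = 0.861 and 0.885 by edgeR), and APC was not called without MET-KO replicate 1 (-0.36).

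Among the nuclear factors all 8 were tested, 5 were higher, 2 lower and 1 not called, with a median log2FC of 0.38. The balance among the 4 TCF/LEF genes differed between the cells, with LEF1 and TCF7L1 higher and TCF7L2 and TCF7 lower in MET-KO. LEF1 (ENSG00000138795, chromosome 4, 108047545 to 108168956), itself a WNT target, had 78 and 54 counts (9.43 and 5.54 CPM) in MET+ against 313 and 278 (30.7 and 25.6 CPM) in MET-KO. Its rise had a log2FC of 1.93 (standard error 0.20, adjusted p = 3.98e-10 by edgeR), and the antisense LEF1-AS1 had 0 counts in MET+ and 7 and 14 in MET-KO libraries. TCF7L2 (ENSG00000148737, chromosome 10, 112950250 to 113167678), the main TCF of the intestinal epithelium, had 899 and 1069 counts (109 and 110 CPM) in MET+ against 417 and 575 (40.9 and 52.9 CPM) in MET-KO. It fell by 1.22 on the log2 scale (standard error 0.11, adjusted p = 3.51e-11 by edgeR). TCF7L1, often a repressor of WNT targets, rose from 16.2 ± 0.880 to 30.4 ± 1.48 CPM (log2FC 0.91, adjusted p = 4.48e-06 by edgeR). TCF7 fell from 20.4 ± 4.40 to 10.8 ± 2.83 CPM (log2FC -0.92, adjusted p = 0.000151 by edgeR), and by 0.49 with the median of chromosome 5 taken out, still below the threshold (adjusted p = 0.0341 by edgeR). SKP1, antisense to TCF7, had 1760 to 2175 counts in the 4 libraries.

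SP5 (ENSG00000204335, chromosome 2, 170715351 to 170718078), a zinc finger factor induced by WNT signaling and the gene with 3 TCF/LEF motif matches in the sequence above, had 10 and 8 counts (1.21 and 0.821 CPM) in MET+ against 101 and 106 (9.90 and 9.76 CPM) in MET-KO. The log2FC of SP5 was 3.28 (standard error 0.35, adjusted p = 1.15e-09 by edgeR), with no overlap. MYC (ENSG00000136997), the growth regulator and classical target of β-catenin, had 600 and 700 counts (72.5 and 71.8 CPM) in MET+ against 936 and 989 (91.8 and 91.1 CPM) in MET-KO. That is a small but even rise, with a log2FC of 0.34 (standard error 0.10, adjusted p = 0.00458 by edgeR). BCL9L, a co-activator that links β-catenin to its partners, rose from 32.1 ± 3.21 to 42.8 ± 0.822 CPM (log2FC 0.41, adjusted p = 0.0058 by edgeR), a call lost without MET+ replicate 1 (0.32). Its relative BCL9 was not called, at 17.3 ± 3.90 and 16.0 ± 0.778 CPM (log2FC -0.12, adjusted p = 0.609 by edgeR).

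**Figure D3:**
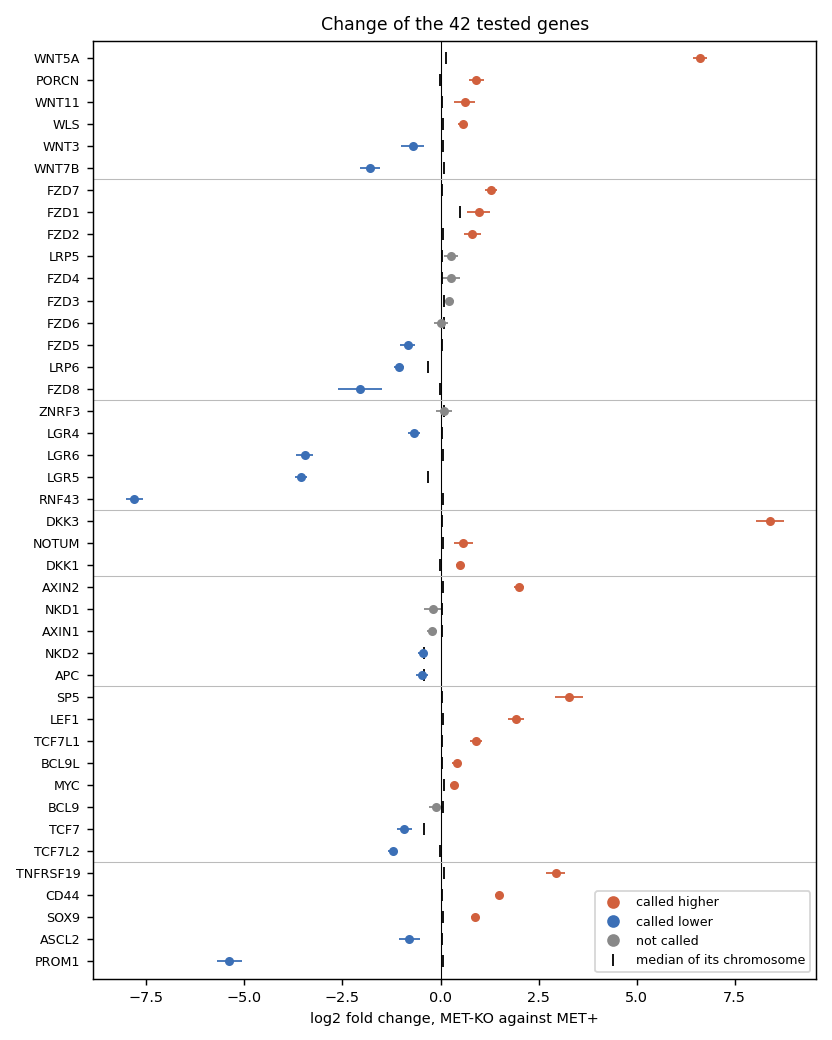
Log2 fold change (log2FC) of MET-KO against MET+ for the 42 tested genes, with the standard error as a whisker, ordered by role, in red where called higher, blue where called lower and grey where not called, and a tick at the median of the gene's own chromosome. APC and NKD2 lie on the tick of chromosome 5, whereas WNT5A, DKK3, RNF43, LGR5, LGR6, SP5 and PROM1 lie far from theirs.

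The crypt stem cell markers split. Of 7 genes, 5 were tested, 3 were higher and 2 lower, with a median log2FC of 0.87. LGR5, which fell (log2FC -3.55), was counted with the R-spondin receptors and is not part of this median. Of the epithelial markers 5 of 8 tested were lower, and their part in this result was not tested. PROM1 (ENSG00000007062, chromosome 4, 15963076 to 16084378), which encodes the surface protein CD133, had 180 and 224 counts (21.8 and 23.0 CPM) in MET+ against 3 and 8 (0.294 and 0.737 CPM) in MET-KO. It fell by 5.39 on the log2 scale (standard error 0.32, adjusted p = 3.5e-16 by edgeR), and the value without MET-KO replicate 2 was -6.18. TNFRSF19 (ENSG00000127863, chromosome 13, 23570370 to 23676104), a receptor also named TROY that marks crypt stem cells, went the other way, with 24 and 25 counts (2.90 and 2.57 CPM) in MET+ and 203 and 237 counts (19.9 and 21.8 CPM) in MET-KO libraries. The log2FC of TNFRSF19 was 2.93 (standard error 0.23, adjusted p = 9.16e-13 by edgeR).

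CD44 (ENSG00000026508, chromosome 11, 35138870 to 35232402), an adhesion receptor and WNT target, had 733 and 772 counts (88.6 and 79.2 CPM) in MET+ against 2365 and 2601 (232 and 240 CPM) in MET-KO. Its increase had a log2FC of 1.49 (standard error 0.10, adjusted p = 4.92e-15 by edgeR). SOX9, a factor of crypt progenitors and Paneth cells, rose from 189 ± 20.2 to 345 ± 49.4 CPM (log2FC 0.87, adjusted p = 5.99e-09 by edgeR). ASCL2, the factor that with LGR5 defines the crypt stem cell, fell from 9.30 ± 2.38 to 5.38 ± 1.51 CPM (log2FC -0.79, adjusted p = 0.0112 by edgeR), but was not called without MET+ replicate 2 (-0.50) or MET-KO replicate 1 (-0.54). With OLFM4 and SMOC2 at or near 0 in every library, LGR5, ASCL2 and PROM1 were the stem cell genes of this set lower in MET-KO cells, and CD44, SOX9 and TNFRSF19 those that were higher. The further list of other crypt and WNT target genes, given below, had 3 higher and 8 lower of 19 tested.

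The changes were also set beside those of their chromosomes and of neighbouring genes. On the chromosomes whose medians lay more than 0.25 from 0, 6 genes were tested (APC, NKD2, TCF7, FZD1, LRP6 and LGR5), of which 1 was higher and 5 lower. On the other chromosomes 36 were tested, 18 higher and 10 lower, with a median log2FC of 0.30. Of the 16 genes called with a log2FC of at least 1 in size, 15 lay at least 1 away from the median of the tested genes within 5 Mb, LRP6 being the exception. For the 42 tested genes those medians ran only from -0.43 to 0.75. Genes picked for a large change therefore mostly had to lie far from them, and a regional cause was not tested. In the annotation, 24 of the 42 tested genes overlap another gene, so that reads in the overlap may have been assigned to either or to neither.

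The rest of the pathway was read from 5 lists of 100 further genes, of which 76 were tested, 41 called (53.9%, beside 54.1% of all genes tested), 21 higher and 20 lower, with a median log2FC of 0.02. Of the 76, 68 were high enough in both groups, 1 (GPX2) only in MET+ and 7 only in MET-KO libraries, among them PRICKLE2 and SLC14A1. Genes high enough in 1 group only had to differ in order to be tested, so these counts too are a description. Those named here as risen or fallen passed the same edgeR threshold over all genes. Among 28 genes of the intracellular core 27 were tested, 6 higher and 7 lower. TLE4, a co-repressor that binds TCF factors, rose from 6.65 and 6.98 to 86.1 and 85.9 CPM (log2FC 3.65), and CTNNB1, which encodes β-catenin itself, from 154 and 135 to 221 and 229 CPM (0.64). TNKS, an enzyme that marks axin for degradation, rose as well (log2FC 0.72), while BTRC, the ligase subunit that recognises phosphorylated β-catenin, the kinase CSNK1A1 and the dishevelled DVL1 fell (log2FCs of -0.98, -0.79 and -0.63), CSNK1A1 lying on chromosome 5 with its median of -0.43. No other core gene passed a log2FC of 1 in size.

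**Figure D4:**
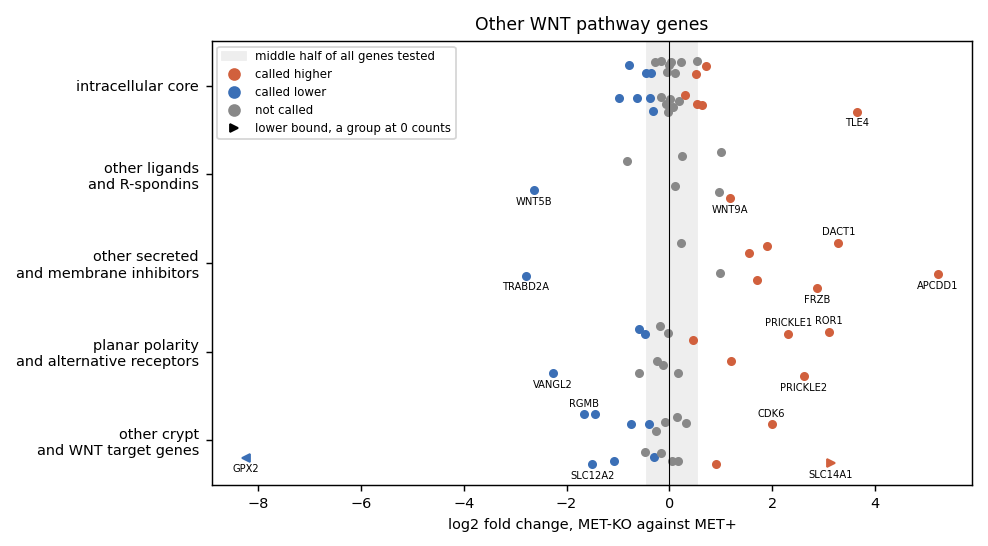
Log2 fold change (log2FC) of MET-KO against MET+ for the 76 tested genes of the 5 further lists, 1 row for each list, coloured by call, with the quartiles of all tested genes as a grey band and arrowheads at the bound for genes with a group at 0 counts. The core genes other than TLE4 stay below 1 in size, some of them outside the grey band. APCDD1, DACT1 and FRZB among the inhibitors and ROR1, PRICKLE1 and PRICKLE2 lie above the band, and TRABD2A, VANGL2, WNT5B and GPX2 below it.

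Other ligands were mostly low: 7 of 18 were tested, 1 was higher (WNT9A, log2FC 1.18) and 1 lower (WNT5B, the closest relative of WNT5A, from 11.1 and 10.9 to 2.26 and 1.29 CPM, log2FC -2.63). Thus WNT5A and WNT5B moved in opposite directions. WNT5B lies on chromosome 12 and stood at -2.32 from its median. WNT7A, at 16 and 10 counts in MET-KO against none in MET+, stayed below the filter. RSPO1, RSPO2, RSPO3 and RSPO4, the ligands of the LGR receptors, had at most 1 count in any library. Of 16 other secreted and membrane inhibitors 9 were tested, 6 higher and 1 lower, but 4 of the 6 (APCDD1, DACT1, FRZB and TRABD2B) passed the filter only through the MET-KO libraries, where they were high, and had to differ in order to be tested. Of the 5 that passed through both groups, KREMEN1 and KREMEN2, receptors for DKK proteins, were higher, TRABD2A was lower, and DACT3 and LRP4 were not called. The summed level of the list was 166 and 182 CPM in MET+ against 125 and 125 in MET-KO. Most of the MET+ sum was TRABD2A alone, at 142 and 157 CPM, against 20.3 and 22.9 CPM in MET-KO, so the lower sum does not describe the other genes of the list. APCDD1, a membrane inhibitor of WNT receptors, had 11 and 4 counts in MET+ against 344 and 321 in MET-KO (log2FC 5.22, standard error 0.28). DACT1, which acts on dishevelled, and FRZB, a frizzled-related ligand trap, rose from low levels (log2FCs of 3.29 and 2.88), and TRABD2A, a membrane protease that inactivates WNT ligands, fell from 1178 and 1527 to 207 and 249 counts (log2FC -2.79, standard error 0.11).

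Of 15 genes of planar polarity and of the alternative receptors, 14 were tested, 5 higher and 3 lower, with a median log2FC of -0.08. ROR1, a receptor kinase for WNT5A, rose from 1.69 and 1.95 to 16.1 and 15.6 CPM (log2FC 3.10). Its relative ROR2 was not called, at 5.44 and 7.80 CPM in MET+ and 4.71 and 4.14 CPM in MET-KO (log2FC -0.59, adjusted p = 0.0836 by edgeR). A link between these receptors and the rise of WNT5A was not tested. The polarity gene PRICKLE1 rose (2.31) and its relative PRICKLE3 fell (-0.48). PRICKLE2 had 3 and 0 counts in MET+ against 11 and 12 in MET-KO, a ratio of 6.56 (exact 95% counting interval 1.98 to 34.1). VANGL2, a core polarity gene, fell from 6.65 and 7.49 to 1.27 and 1.66 CPM (log2FC -2.26), and the formin DAAM1 fell by 0.59 on the log2 scale. DAAM1 lies on chromosome 14, whose median was -0.51, and stood at -0.08 from it. Of 23 other crypt and WNT target genes 19 were tested, 3 higher and 8 lower, with a median log2FC of -0.26 that was the same with genes at 0 in a group set to their bounds. GPX2, a glutathione peroxidase of the intestinal epithelium, had 666 and 891 counts in MET+ against 0 in both MET-KO libraries, at least 301-fold lower. SLC14A1, a urea transporter, had 0 counts in both MET+ and 33 and 29 counts in the MET-KO libraries, at least 8.81-fold higher, with the floor of 3 counts taken per library in both cases. The cell cycle kinase CDK6 and the secreted FSTL1 rose (log2FCs of 1.99 and 0.91), and RGMB, a BMP co-receptor, and the ion transporter SLC12A2 fell (-1.65 and -1.50). CDK6 lies on chromosome 7 and stood at 1.49 from its median. RGMB and SLC12A2 lie on chromosome 5 and stood at -1.22 and -1.07 from its median.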

How the data were processed

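Total RNA of LoVo cells was sequenced in 4 libraries made with the QuantSeq 3' kit (FWD), 2 of MET+ and 2 of MET-KO cells, grouped by their titles. The tables that the authors deposited give whole-number counts of reads per gene, not normalized, with 58825 gene rows and 99 spike-in rows, the latter at 0 counts in every library and left out. The submitters' processing notes name bcl2fastq, cutadapt 1.16, FastQC 0.11.7, MultiQC 1.5, STAR 2.5.4a, featureCounts 1.6.2, DESeq2 1.18.1 and the build GRCh38. The annotation and the strand setting of the counting are not given in the sources used here, and without strand, reads of a gene and its antisense partner cannot be told apart. Gene names, coordinates and overlapping genes come from GENCODE 29, where 58552 IDs had an entry, and promoter sequences from RefSeq.

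Depth was 8429142 to 10286552 counts per library. Genes were filtered with filterByExpr by group (a CPM of at least 0.982 in 2 libraries), scaled with TMM and tested in R 4.3.3 with edgeR 4.0.16 (limma 3.58.1), by the quasi-likelihood test on all 13801 genes that passed, with the condition as the only term, Benjamini-Hochberg adjustment over all of them and a threshold of 0.05. Standard errors were the log2 fold change divided by the square root of F. An exact permutation test of a single gene with 2 against 2 libraries cannot go below p = 0.333, so none was used, and since the labels do not say that the replicates are separate clones, p-values measure only the spread between these libraries. A gene at 0 counts was given a floor of 3 counts per library. Intervals of ratios were exact Clopper-Pearson intervals on summed counts.

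Every gene of the set is named. Full statistics were given for those called with a log2 fold change of at least 1 in size and for AXIN2, LGR5 and MYC, and from each further list up to 3 genes called higher and 3 called lower with the largest change. The genes, lists and roles were chosen with earlier results of these data known. ZNRF3 was given in full beside RNF43 after its values were seen. Promoters were searched on both strands in Python 3.11.15, and printed for the 2 higher and 2 lower genes with the largest change that had at least 50 bases before the first exon. Figures were drawn with matplotlib 3.10.9. Alternatives were DESeq2 size factors, library totals alone, the Wald test of DESeq2 1.42.0, no filter on low counts, a minimum of 10 counts per library, a replicate block, thinning to the smallest library (seed 1), a minimum log2 fold change of 1 in size, each chromosome's median as an offset, and leaving out each library. The edgeR script was tested on simulated data.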

Additional observations from a re-analysis of the deposited data

How the results depend on the processing

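Under an added minimum log2 fold change of 1 in size, the genes called higher numbered 8 instead of 19, those called lower 8 instead of 15, and the further pathway genes called lower 8 instead of 20. In the other settings the set had 15 to 19 genes higher and 11 to 15 lower, with the fewest under the Wald test of DESeq2, which did not call APC, ASCL2, BCL9L, FZD1, FZD8, NOTUM, WNT11 and WNT3. With 1 library left out the counts were 16 to 18 higher and 12 to 15 lower, and for the further genes 18 to 22 higher and 17 to 21 lower. The sign changed for FZD6 (0.01, but -0.0816 with the chromosome medians taken out and -0.16 to 0.18 with 1 library left out) and, with 1 library left out, for BCL9 (-0.32 to 0.14), neither of them called in any setting, and for ZNRF3 (-0.26 to 0.51, called at the upper end). The chromosome offset ended the calls of APC, FZD1, NKD2, NOTUM and WNT11, no filter that of NOTUM, thinning that of WNT11, and scaling by library totals alone those of APC and WNT3, a setting in which the median of all genes was 0.11 instead of 0.01. With a minimum of 10 counts in every library, 37 genes could be tested, 17 higher and 12 lower. The replicate numbers did not pair the libraries (correlation of same-numbered deviations -0.0216), and a replicate block gave 17 genes higher and 14 lower, without NOTUM, WNT11 and WNT3. DESeq2 size factors left all 42 calls as they were. Depth limits the 8 genes that were not tested and the size of the changes of DKK3, FZD8, LGR6, PROM1, RNF43, SP5, TNFRSF19 and WNT5A, each of which had 30 or fewer counts per library in its lower group.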
